A study of Mus musculus with 2 samples.

Results

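The ADAM, ADAMTS and ADAMTS-like (ADAMTSL) genes were taken as all genes whose symbol consists of Adam, Adamts or Adamtsl, a number and at most 1 further letter, which gave 57 of the 31053 genes counted. Of these, 33 were ADAM genes, 19 were ADAMTS genes and 5 were ADAMTSL genes. They were described across cell types gated by marker genes and across 2 diets in single-cell RNA sequencing of the aortic arch. All mice were male Apoe-/- animals of the C57BL/6 strain, 16 weeks of age. The ND group (control) received a normal diet and the HFD group a diet high in fat and cholesterol from weaning. Loss of Apoe, which clears lipoproteins from the blood, was shared by both groups, so the ND group is not a wild-type control. Each diet was measured in 1 library, made from 2 pooled aortas, so there were no replicates, no difference was tested, and every interval covers counting error only.

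ADAM proteins are membrane-anchored and carry a metalloprotease and a disintegrin domain. Their active members, called sheddases, cut the outer part of other membrane proteins such as Notch receptors, cadherins and cytokine precursors from the cell surface. ADAMTS proteins are secreted, carry thrombospondin repeats, and cut matrix proteins such as versican, aggrecan, procollagen and von Willebrand factor, which matters in the artery wall because proteoglycans there hold lipoproteins. ADAMTSL proteins have the thrombospondin repeats but no protease domain, and several bind fibrillin microfibrils.

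Counts are unique molecular identifiers (UMIs), each standing for 1 captured RNA molecule. The filter on genes, UMIs and mitochondrial share left 5416 ND and 2739 HFD cells with 27137322 and 17191279 UMIs, and the medians were 3732.5 and 5336 UMIs per cell. It removed 4818 of 10234 ND barcodes and 11486 of 14225 HFD barcodes. Only 1 kept barcode sequence occurred in both libraries. Cells were assigned to 13 cell types with 6 markers each, by at least 3 markers counted and a lead of at least 2 markers over every other type. The endothelial gate held 2451 ND and 1282 HFD cells, the fibroblast gate 963 and 412, and the macrophage gate 407 and 534. All other gates were small in at least 1 library, among them mural cells (smooth muscle cells and pericytes) with 39 and 12 cells. The airway gate held 57 ND cells and 0 HFD cells, so the ND tissue carried cells from outside the artery. The adipocyte gate held 19 ND and 7 HFD cells, with its marker Ucp1 at 152 and 3460 CPM (counts per 1000000 UMIs). Plin5 (23.1 and 221 CPM) and Plin1 (684 and 882 CPM) were also higher in HFD. Adipoq (1513 and 1370 CPM), Cidec (1770 and 1416 CPM) and Cidea (819 and 755 CPM) were lower, so the markers of this gate did not move together. For each gate and library a gene's UMIs were added up and given per 1000000 UMIs of that gate, written as CPM. The endothelial marker Pecam1 was at 1255 and 1274 CPM in its own gate and at 26.0 and 27.9 CPM in fibroblasts. The CPM of 1 gene is compared between cells or diets, never between genes, because gene length was not corrected for.

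Promoter sequence is shown for Adam15, Adamts1 and Adamts9, because these genes carried the endothelial results below. Each run is the 250 bases before the RefSeq start on GRCm38.p6, on the minus strand, 5′ to 3′. The Adam15 stretch lies at chr3:89350029-89350278, that of Adamts1 at chr16:85803114-85803363 and that of Adamts9 at chr6:92943535-92943784. Capitals mark the letters that matched a searched motif on either strand.
Adam15: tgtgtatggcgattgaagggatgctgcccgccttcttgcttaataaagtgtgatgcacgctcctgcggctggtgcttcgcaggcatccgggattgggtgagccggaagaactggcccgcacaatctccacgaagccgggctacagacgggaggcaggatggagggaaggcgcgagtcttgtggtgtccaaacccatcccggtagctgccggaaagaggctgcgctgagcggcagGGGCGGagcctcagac
Adamts1: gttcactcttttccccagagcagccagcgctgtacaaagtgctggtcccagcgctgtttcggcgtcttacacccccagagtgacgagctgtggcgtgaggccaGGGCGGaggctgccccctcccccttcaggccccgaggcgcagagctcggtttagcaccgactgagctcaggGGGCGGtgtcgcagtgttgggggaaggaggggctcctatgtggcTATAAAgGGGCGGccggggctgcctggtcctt
Adamts9: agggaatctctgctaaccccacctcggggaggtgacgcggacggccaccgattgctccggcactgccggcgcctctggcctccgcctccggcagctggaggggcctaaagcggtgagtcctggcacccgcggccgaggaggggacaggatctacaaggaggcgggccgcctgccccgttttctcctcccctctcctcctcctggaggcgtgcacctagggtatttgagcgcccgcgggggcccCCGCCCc
All of these stretches were rich in G and C, at 62.0%, 65.6% and 71.2% of bases in Adam15, Adamts1 and Adamts9. Both strands were searched for 6 motifs. A promoter was listed for 16 of the 31 measured members, and 12 of them held a GC box, GGGCGG, against 32.7% of all 32851 promoters listed. The TATA box, TATAAA, was found in 2 of the 16, Adamts1 and Adamtsl2, against 12.4% of all promoters. Adam10 and Adam19 held the E-box, CACGTG (6.02% of all promoters). Adam19 alone held the AP-1 site, TGACTCA (4.46%). Neither the CRE, TGACGTCA (1.55%), nor the ETS site, CCGGAAGT (2.88%), was found in any of the 16. No matches overlapped in the printed stretches. A match describes these letters and is not evidence that a factor binds there.

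In the kept cells, 31 of the 57 members reached 50 UMIs, the minimum set for describing a gene. They were 14 ADAM, 12 ADAMTS and all 5 ADAMTSL genes. No UMI was counted for 12 members, all of them ADAM genes (Adam3, Adam6a, Adam18, Adam20, Adam21, Adam24, Adam25, Adam26a, Adam26b, Adam29, Adam34 and Adam39), and the other 14 had between 1 and 38 UMIs. Several genes with no UMI are known for expression in testis. Members together took 1535 CPM of the ND library and 1874 CPM of the HFD library, and the 5 with the most UMIs (Adamts1, Adamts9, Adam15, Adamts5 and Adam10) held 74.9% of all member UMIs. Adam4 lies within Cox16 on the same strand, so its 54 UMIs cannot be assigned with certainty.

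More members were called in fibroblasts than in any other large gate. A gene was called higher in a gate when its CPM was at least 4-fold that of all other gated cells in both libraries. In the fibroblast gate 14 of the 30 members with enough UMIs were called, against 6.38% of all 13174 genes (840 genes), and the median of the 30 was a log2 ratio of 2.02 in ND and 2.54 in HFD, beside medians of -0.02 in both libraries over all genes. In the endothelial gate 2 of 30 were called, Adamts1 and Adamts9, against 5.39% of all genes. In the macrophage gate 1 of 30 was called, Adam30, against 4.27% of all genes. Adam30 was at 23.3 and 8.89 CPM in macrophages and at 26.2 and 7.24 CPM in dendritic cells, the latter from 7 and 2 UMIs. Among the 4 gates with at least 30 cells in both libraries, fibroblasts had the highest CPM for 17 members in ND and 19 in HFD, endothelial cells for 6 and 5, macrophages for 3 and 3, and dendritic cells for 5 and 3. The gate that ranked first was the same in both libraries for 25 of the 31 members, and Adam28 had no UMI in any of these gates in HFD. When cells with any marker of another gate were left out, 7 members were called in fibroblasts and 0 in macrophages.

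**Figure D1:**
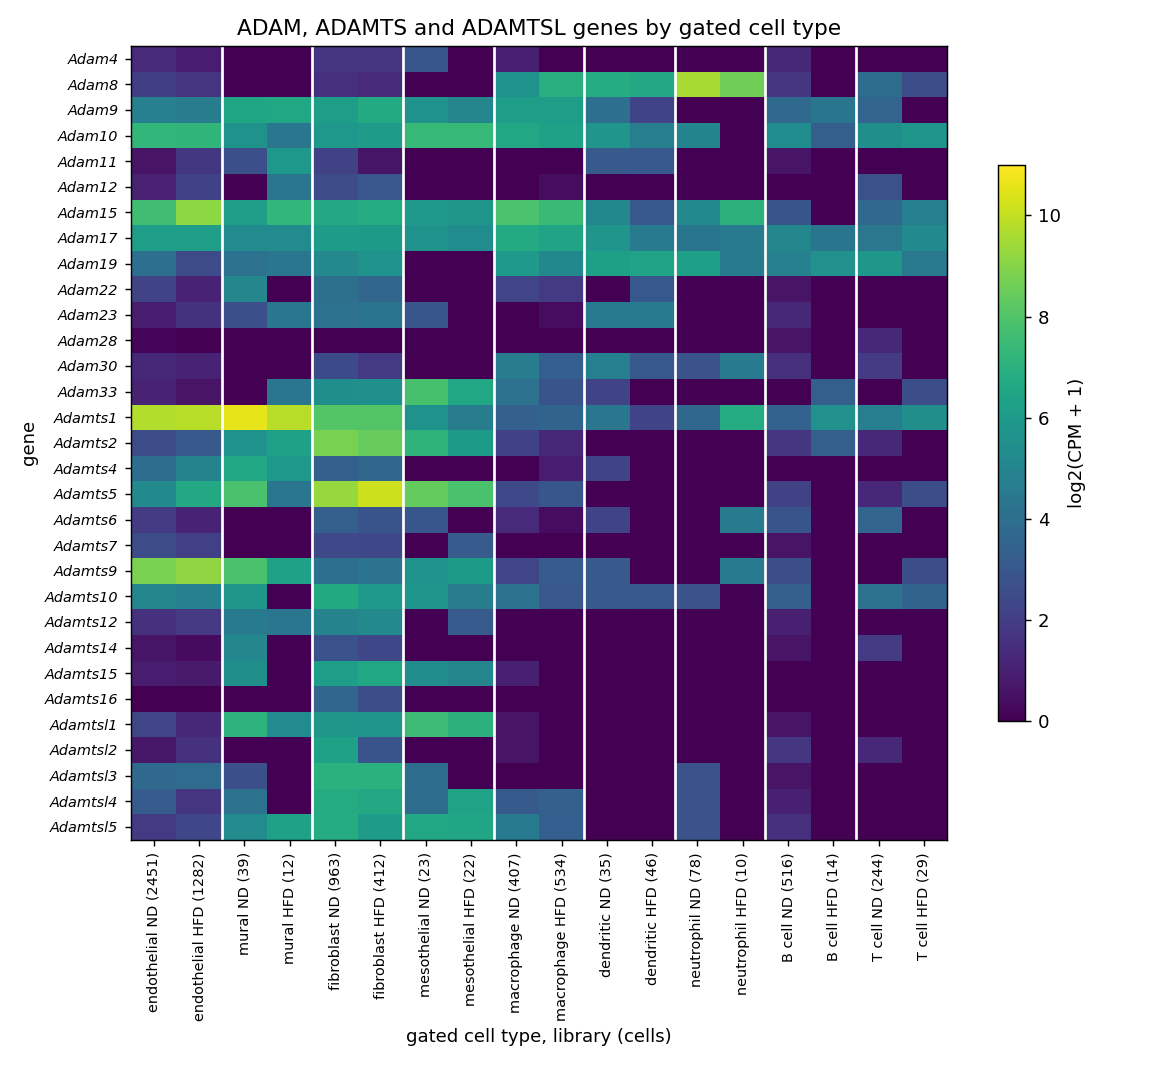
Colour gives log2(CPM + 1) of the 31 measured genes (rows) in 9 gated cell types, with ND and HFD side by side and the number of cells in parentheses (columns). Rows are read across and not against each other: Adamts9 was bright in endothelial cells (444 and 579 CPM), Adamts2 and Adamts5 in fibroblasts, and Adam8 in neutrophils (764 and 394 CPM), while columns of few cells carry wide counting error.

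Among the endothelial genes, Adamts9, which cuts versican and aggrecan, was the most restricted. It reached 444 CPM in ND endothelial cells (95% interval 433 to 456) and 579 CPM in HFD endothelial cells (562 to 596), and 12.1 and 12.0 CPM in all other gated cells. These ratios were 36.7-fold and 48.3-fold, and the endothelial gate held 89.3% and 88.4% of all its UMIs. Mural cells were the exception among the others, at 231 CPM in ND and 77.0 CPM in HFD, from 42 and 4 UMIs. Adamts1, a versican- and aggrecan-cutting relative that lies beside Adamts5 on chromosome 16, was at 839 CPM and 890.5 CPM in endothelial cells, 6.60-fold and 9.34-fold over the rest. It was also high outside that gate, with 1538 and 905 CPM in mural cells and 263 and 267 CPM in fibroblasts. Adam10, the main sheddase of Notch and cadherins, was at 157 and 144 CPM in endothelial cells, under the 4-fold limit. It was at 56.9 and 64.2 CPM in fibroblasts and 93.9 and 77.6 CPM in macrophages. Small gates stood above endothelial cells, with 163 and 165 CPM in mesothelial cells and 249 CPM in ND Schwann cells. Adam17, which releases tumour necrosis factor, was at 70.2 and 71.8 CPM in endothelial cells, 65.0 and 63.1 CPM in fibroblasts and 104 and 85.7 CPM in macrophages. Its log2 ratio of macrophages over all other gated cells was 0.79 (0.572 to 0.998) in ND and 0.35 (0.16 to 0.54) in HFD, under the 4-fold limit.

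Among the fibroblast genes stood the procollagen N-proteinase Adamts2, which trims the amino end of fibrillar procollagens, with 446 CPM in ND and 347 CPM in HFD fibroblasts against 5.36 and 6.28 CPM in all other gated cells. Mesothelial cells had Adamts2 at 143 and 63.0 CPM, and mural cells at 49.4 and 77.0 CPM. Adamts5, a strong aggrecanase, was at 637 and 1144 CPM in fibroblasts and 31.6 and 66.8 CPM in all other gated cells together. Small gates among these stood higher, with 340 and 228 CPM in mesothelial cells, 231 and 19.2 CPM in mural cells and 222 CPM in ND Schwann cells. Adamts15, another aggrecanase, reached 70.4 and 92.6 CPM against 1.82 and 0.941 CPM in all other gated cells together. Small gates stood higher here too, with 40.8 and 31.5 CPM in mesothelial cells and 44.0 CPM in ND mural cells, from 8 UMIs. Of the aggrecanases, Adamts5 and Adamts15 were called in fibroblasts, Adamts1 and Adamts9 in endothelial cells, and Adamts4 in neither, at 2.97-fold in ND and 6.80-fold in HFD endothelial cells over the rest. Adamts16 was counted in no other gated cell, with 45 ND and 10 HFD fibroblast UMIs, all of them in Pi16-type cells. Adamts12, which cuts cartilage oligomeric matrix protein, was at 29.6 and 35.2 CPM against 1.72 and 1.80 CPM. In mural cells it was at 22.0 and 19.2 CPM, from 4 and 1 UMIs. The 5 ADAMTSL genes were called too. Of these, Adamtsl3 was at 129 CPM in both libraries, Adamtsl4 at 108 and 98.9 CPM, Adamtsl1 at 55.9 and 51.5 CPM and Adamtsl5 at 112 and 67.3 CPM. In HFD, Adamtsl5 stood higher in mesothelial cells (86.6 CPM) and mural cells (77.0 CPM, from 4 UMIs) than in fibroblasts. The ADAM genes called in fibroblasts were Adam33, at 44.1 and 44.7 CPM, and Adam22 and Adam23, which lack a working protease site and act as adhesion receptors, at 15.6 and 11.6 CPM and at 16.3 and 17.9 CPM. Adamts14, a second procollagen N-proteinase, was also called, from only 23 and 8 fibroblast UMIs. Adamtsl2, the remaining call, is described with the diets. In the 39 ND mural cells, Adamtsl1 (25 UMIs, 137 CPM), Adam22 and Adamts14 (6 UMIs and 33.0 CPM each) were above their fibroblast levels. Under the limit in fibroblasts were Adamts10, with 102 and 58.4 CPM against 25.4 and 19.8 CPM elsewhere, Adamts6 at 9.18 and 6.31 CPM, Adam12 at 4.85 and 6.84 CPM and Adamts7 at 4.34 and 4.21 CPM.

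Several members were highest in gates too small for the calls. Adam8, a sheddase of leukocytes, was at 764 CPM in 78 ND neutrophils (636 to 911) and 394 CPM in 10 HFD neutrophils (234 to 623), and at 112 and 97.7 CPM in dendritic cells. Adam11 and Adam23 stood out in the 29 ND Schwann cells, at 263 CPM (159 to 411) and 360.3 CPM (235 to 528), from 19 and 26 UMIs. Adam22 was highest there too, at 111 CPM (47.9 to 218), from 8 UMIs. Adam28 had 83 of its 102 ND UMIs in the airway gate and 1 UMI in the whole HFD library. The absence of airway cells from the HFD library moves with that difference, so no diet ratio is given for it. Mesothelial cells carried Adam33 at 225 and 94.5 CPM and Adamtsl1 at 184 and 134 CPM. Adamts14 was at 168 CPM in the 16 ND natural killer cells, from 8 UMIs (72.6 to 331).

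The diet ratio that stood highest among the endothelial members was that of Adam15, whose product carries an integrin-binding disintegrin domain. It was at 199 CPM in ND endothelial cells (191 to 207) and at 554 CPM in HFD endothelial cells (538 to 571), from 2516 and 4508 UMIs. The ratio was 2.78-fold, a log2 value of 1.48 (1.41 to 1.55). Over the 11077 genes with at least 50 UMIs in the endothelial gate, 99.4% had a lower log2 ratio. The share of endothelial cells with an Adam15 UMI was 52.0% in ND and 89.6% in HFD, at medians of 3696 and 5429.5 UMIs per cell. After each cell was thinned to 1000 UMIs the shares were 17.4% and 41.5%. In ND B cells, where Adam15 was at 6.18 CPM, they were 2.33% unthinned and 0.969% thinned, at a median of 3469.5 UMIs per cell. The HFD library held only 14 B cells, so that low level cannot be compared between the diets. In the other large gates Adam15 was at 99.5 and 107 CPM in fibroblasts and at 237 and 170.3 CPM in macrophages. Among small gates it was at 71.4 and 154 CPM in mural cells, 36.7 and 131 CPM in neutrophils and 12.5 and 26.3 CPM in T cells. It was at 33.7 and 7.24 CPM in dendritic cells and 61.2 and 55.1 CPM in mesothelial cells. The libraries also differed in median mitochondrial share, at 16.8% in ND and 21.9% in HFD, and the removed barcodes held Adam15 at 72.0 CPM (408 UMIs) in ND and 235 CPM (5668 UMIs) in HFD. Over 9 other settings, one of them with no limit on that share, the endothelial log2 ratio lay between 1.37 and 1.64. In the endothelial gate the adipocyte markers summed to 60.1 CPM in ND and 135 CPM in HFD, with Ucp1 from 8.55 to 96.4 CPM. Cidea (13.6 to 19.9 CPM) and Plin5 (2.06 to 2.46 CPM) were also higher in HFD. Adipoq (16.2 to 4.55 CPM), Cidec (14.4 to 7.01 CPM) and Plin1 (5.30 to 4.67 CPM) were lower, so the higher sum rests on Ucp1. The part of fat cell RNA or attached tissue in the Adam15 ratio was not tested. The study had chosen Adam15 as a gene enhanced by HFD on these same libraries, so its ratio here is not independent evidence.

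A diet difference was counted when it passed 2-fold. In endothelial cells 3 of 18 members were past it upward, Adam15, Adamts4 and Adamts5, against 1.53% of all genes, and 4 of 18 downward, Adam19, Adam22, Adamtsl1 and Adamtsl4, against 5.40% of all genes. The median log2 ratio over all genes was -0.16 in endothelial cells, -0.17 in fibroblasts and -0.11 in macrophages, and the ratios below are to be read against those values. The median of the 18 members was -0.05. Adamts5 went from 36.3 CPM (458 UMIs) to 97.9 CPM (796 UMIs), a log2 ratio of 1.43 (1.26 to 1.60), and Adamts4, the other main aggrecanase, from 14.5 to 29.3 CPM, a log2 ratio of 1.01 (0.73 to 1.30) that lies at the limit. All 6 mural markers were counted in the endothelial gate, and their sum moved from 308 to 472 CPM, with Rgs5 from 177 to 304 CPM. Abcc9 went from 14.6 to 42.8 CPM and Notch3 from 10.6 to 17.6 CPM. Acta2 (54.6 and 56.4 CPM), Tagln (48.5 and 47.2 CPM) and Myh11 (2.69 and 3.93 CPM) moved little. Mural cells had Adamts4 at 93.4 CPM in ND and 57.7 CPM in HFD, from 17 and 3 UMIs. The part of mural RNA in the Adamts4 result was not tested. Adam19, a sheddase of neuregulins, was lower in HFD, at 15.0 and 4.79 CPM, a log2 ratio of -1.65 (-2.19 to -1.15). Adamtsl4 went from 105 to 18 UMIs, and Adam22 and Adamtsl1 passed the limit on 57 and 61 UMIs in all. When cells with any marker of another gate were left out, 369 ND and 148 HFD endothelial cells stayed, and a call needs at least 50 UMIs. There 0 endothelial members were called lower and Adamtsl4 turned to 1.015. With at most 20% mitochondrial UMIs 2 were called lower. Over the settings the log2 ratio lay between -1.97 and -1.295 for Adam19, -2.24 and -1.14 for Adamtsl1, and -2.31 and -0.98 for Adam22.

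The other endothelial members with 200 or more UMIs differed by less. Adamts9 had a log2 ratio of 0.38 (0.33 to 0.44), and between 0.22 and 0.53 under the other settings. Adamts1 was at 0.09 (0.04 to 0.13), but between -0.12 and 0.23 under the other settings, so it had no stable direction. Adam10 was at -0.13 and Adam17 at 0.03, and both changed sign with the setting. Adam9 was at 26.5 and 24.2 CPM, Adamts10 at 31.9 and 26.9 CPM and Adamtsl3 at 12.7 and 13.5 CPM. The 3 members with the most endothelial UMIs thus had ratios of 0.09 for Adamts1, 0.38 for Adamts9 and 1.48 for Adam15.

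**Figure D2:**
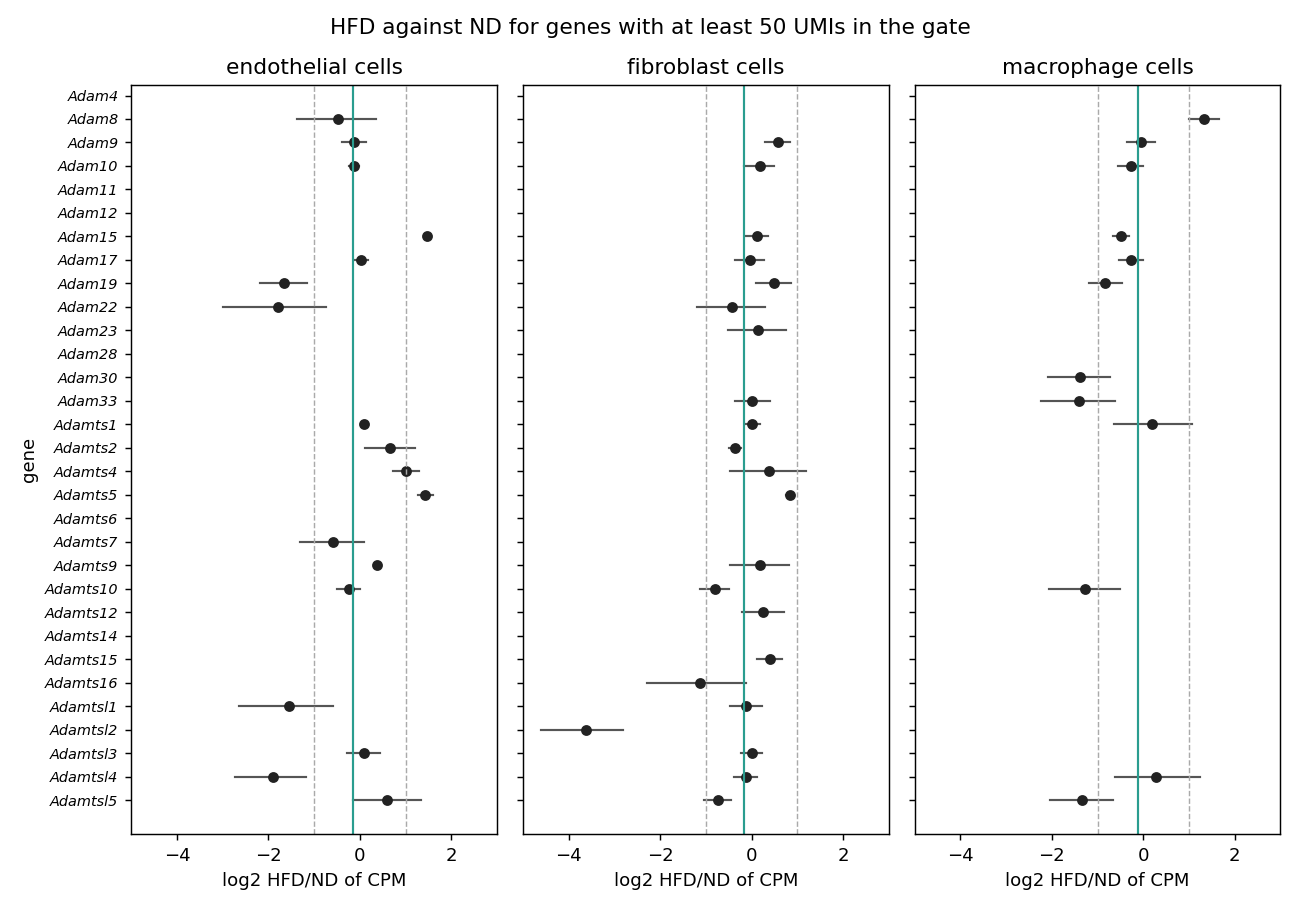
Each point is the log2 ratio of CPM, HFD over ND, of 1 gene in the endothelial, fibroblast or macrophage gate, with its exact 95% counting interval as a line. Dashed lines mark 2-fold, the green line marks the median of all genes in that gate, and genes under 50 UMIs in a gate have no point. Adam15 stood at 1.48 in endothelial cells, Adamtsl2 at -3.63 in fibroblasts and Adam8 at 1.32 in macrophages.

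Endothelial cells were divided further by sub-gate markers into luminal cells (Vwf, Vcam1, Cytl1; 272 ND and 124 HFD cells) and capillary cells (Gpihbp1, Cd36, Rbp7; 2144 and 1150 cells). Capillary cells made up 87.5% and 89.7% of the gate. Higher in luminal cells by at least 2-fold in both libraries were 5 of 17 members, Adam9, Adam10, Adamts10, Adamtsl4 and Adamtsl5, against 14.0% of all genes. Lower in luminal cells were 4 of 17, the aggrecanases Adamts1, Adamts4, Adamts5 and Adamts9, against 8.35% of all genes, and the other 8 were neither. When cells with any marker of another gate were left out, 0 were higher and 2 lower. Adamts9 was at 18.5 and 24.4 CPM in luminal cells and 551 and 677 CPM in capillary cells, a ratio of 29.7-fold in ND and 27.7-fold in HFD. Adamts10, which binds fibrillin, went the other way, with 87.8 and 89.3 CPM in luminal and 19.4 and 16.4 CPM in capillary cells. Adam10 was at 298 and 411 CPM in luminal and 123 and 96.4 CPM in capillary cells.

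The diet ratio of Adam15 was larger in capillary cells. There the gene went from 194 to 597 CPM, from 1952 and 4126 UMIs, a log2 ratio of 1.62 (1.55 to 1.70). In luminal cells it went from 241 to 319 CPM, from 546 and 379 UMIs, a log2 ratio of 0.41 (0.21 to 0.60), and these counting intervals do not overlap. Adam15 was higher in luminal than in capillary cells in ND, with a log2 ratio of 0.31, and lower in HFD, with a log2 ratio of -0.90. Adam10 also moved apart, with a log2 diet ratio of 0.46 (0.29 to 0.63) in luminal and -0.36 (-0.49 to -0.22) in capillary cells. For Adam19 the difference lay in capillary cells, with 174 and 29 UMIs, while luminal cells had 12 and 10. For Adamtsl4 it lay in luminal cells, with 78 and 6 UMIs, a log2 ratio of -2.77 (-4.26 to -1.58), while capillary cells had 15 and 8. Adamts5 was at 41.0 and 111 CPM in capillary cells and had 26 and 17 UMIs in luminal cells.

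**Figure D3:**
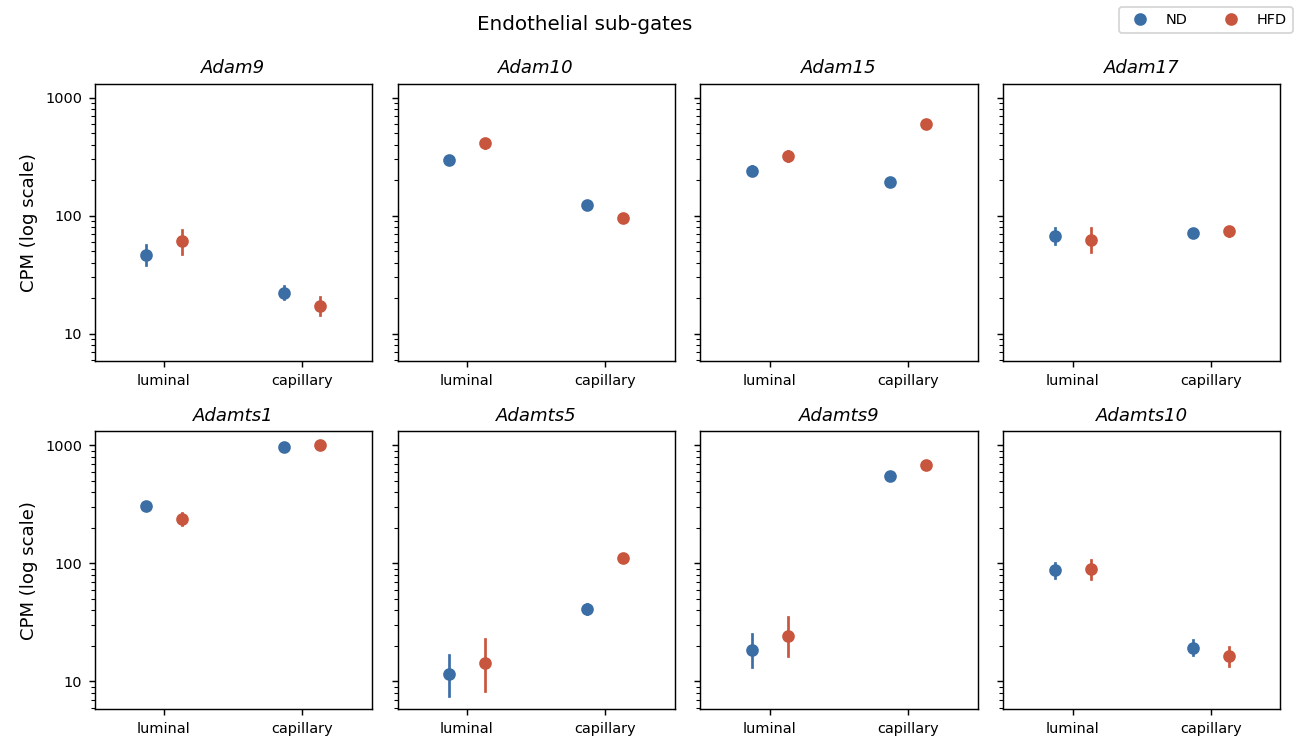
CPM of 8 genes (log axis) in luminal and capillary endothelial cells of the ND library (blue) and the HFD library (red), with exact 95% Poisson intervals, which are narrower than the symbol for the best-counted genes. Adam15 was at 194 and 597 CPM in capillary cells and at 241 and 319 CPM in luminal cells, while Adamts9 stayed between 18.5 and 24.4 CPM in luminal cells.

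In the fibroblast gate 0 of 22 members passed 2-fold upward, against 1.40% of all genes, and 2 of 22 passed it downward, Adamtsl2 and Adamts16, against 5.58% of all genes. Adamtsl2, which binds latent TGF-beta binding protein and fibrillin, was at 78.0 CPM (306 UMIs) in ND and 6.31 CPM (12 UMIs) in HFD, a log2 ratio of -3.63 (-4.60 to -2.80), and 99.7% of the 8836 genes tested had a higher ratio. Adamts16 had 45 and 10 UMIs. Adamts5 was just inside the limit at a log2 ratio of 0.85 (0.76 to 0.93), from 2497 and 2176 UMIs. Below that, Adam9 (70.7 and 105 CPM) stood at 0.57, Adam19 (140 and 95 UMIs) at 0.48 and Adamts15 at 0.40 with intervals above 0, though Adam19 was at -0.22 when cells with any marker of another gate were left out. On the other side were Adamts10 at -0.80, Adamtsl5 at -0.74 and Adamts2 at -0.36 with intervals below 0. For Adamts1, Adam10, Adam15, Adam17, Adam33, Adamtsl1, Adamtsl3 and Adamtsl4 the log2 ratios lay between -0.13 and 0.17, with intervals that span 0.

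The makeup of the fibroblast gate differed between the libraries, so its 4 sub-gates were read apart. Pi16-type cells were 52.4% of ND and 68.2% of HFD fibroblasts, Inmt-type cells 18.2% and 14.8%, Fmod-type cells 14.7% and 2.18%, and Cxcl14-type cells 1.66% and 6.07%. The lower Adamtsl2 was seen within sub-gates, with 129 and 4 UMIs in Pi16-type cells, a log2 ratio of -4.34 (-6.24 to -2.95), and 20 and 1 in Inmt-type cells. In Fmod-type cells it had 122 and 0 UMIs, with an ND level of 222 CPM (184 to 265), where 3 UMIs would equal 65.9 CPM in HFD. The difference in Adamts2 was not seen in the larger sub-gates, with log2 ratios of -0.06 (-0.23 to 0.11) in Pi16-type and -0.07 (-0.41 to 0.27) in Inmt-type cells. Fmod-type cells, which carried Adamts2 at 939 CPM in ND, were the sub-gate nearly missing from HFD, with 142 and 9 cells. Adamts5 was at 953 and 1404 CPM in Pi16-type cells, 238 and 486 CPM in Inmt-type cells, 237 and 589.7 CPM in Cxcl14-type cells and 271 and 198 CPM in Fmod-type cells, the last from 149 and 9 UMIs. Adamts15 went from 36.1 to 73.3 CPM in Pi16-type cells, a log2 ratio of 1.02 (0.59 to 1.46), with 124 and 136 CPM in Inmt-type cells. Adamtsl3 moved in opposite directions, with a log2 ratio of -0.45 (-0.73 to -0.18) in Pi16-type and 1.13 (0.56 to 1.70) in Inmt-type cells.

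Between these sub-gates, 4 of 21 members were at least 2-fold higher in Pi16-type than in Inmt-type cells in both libraries, Adam9, Adamts5, Adamtsl4 and Adamtsl5, against 3.14% of all genes. Lower in Pi16-type cells were 2 of 21, Adam23 and Adamts12, against 2.53% of all genes. Adamts5 was 4.01-fold higher in Pi16-type cells in ND and 2.89-fold higher in HFD, and Adamtsl4 was 3.11-fold and 3.95-fold higher. Adamts16, with 45 and 10 UMIs in Pi16-type cells and 0 in Inmt-type cells, had too few counts for a ratio in HFD.

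**Figure D4:**
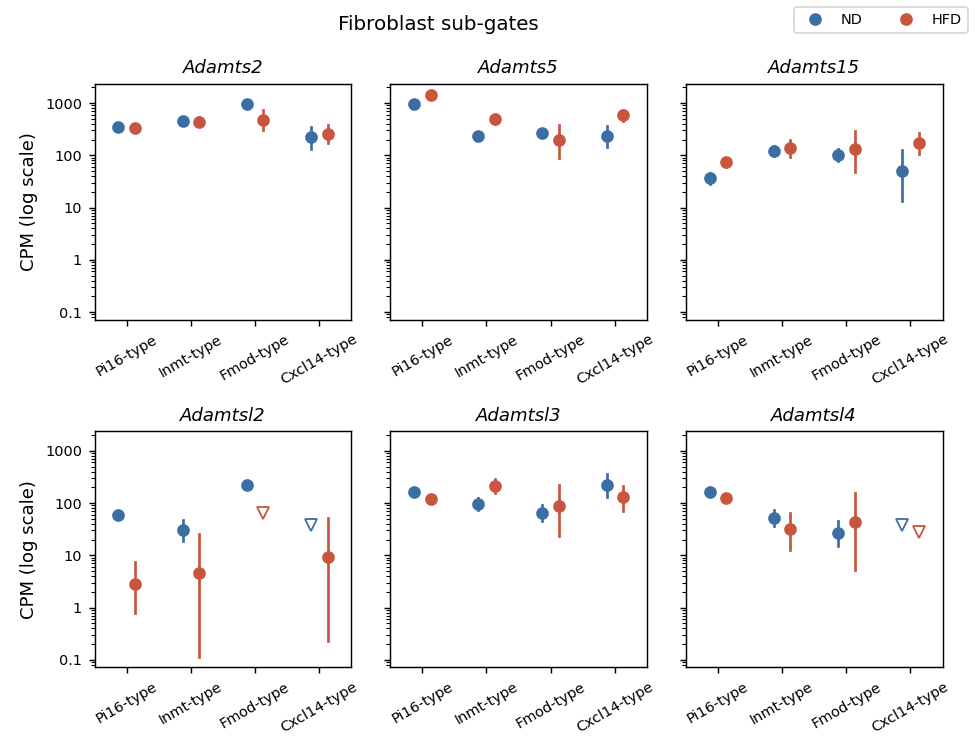
CPM of 6 genes (log axis) in 4 fibroblast sub-gates of the ND library (blue) and the HFD library (red), with exact 95% Poisson intervals. An open triangle stands where no UMI was counted and marks the CPM of 3 UMIs. Adamtsl2 was lower in HFD in Pi16-type, Inmt-type and Fmod-type cells, and the wide intervals of Fmod-type HFD cells come from 9 cells.

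In macrophages 1 of 12 members passed 2-fold upward, Adam8, against 2.78% of all genes, and 4 of 12 downward, Adam30, Adam33, Adamts10 and Adamtsl5, against 5.22% of all genes. Adam8 went from 48.1 CPM (99 UMIs) to 120.5 CPM (447 UMIs), a log2 ratio of 1.32 (1.01 to 1.65). Adam33, Adamts10 and Adamtsl5 were highest in fibroblasts among the large gates, and each had at most 77 macrophage UMIs. All 6 fibroblast markers were counted in the macrophage gate, and their sum went from 140 CPM in ND to 35.0 CPM in HFD, with Col3a1 from 58.4 to 10.5 CPM. The part of fibroblast RNA in these lower values was not tested. Adam30 had 48 and 33 UMIs, or 23.3 and 8.89 CPM. Adam15 was at 237 and 170.3 CPM, a log2 ratio of -0.48 (-0.65 to -0.31), and Adam19 at 61.3 and 34.5 CPM, a log2 ratio of -0.83 (-1.20 to -0.46). Adam10 and Adam17 were both at -0.27, and Adam9, at 71.5 and 68.7 CPM, was at -0.06.

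Macrophages were divided by marker UMIs into resident cells (Folr2, F13a1, Lyve1; 267 and 267 cells) and foam cells (Gpnmb, Trem2, Mmp12; 54 and 193 cells). Foam cells are by definition laden with lipid, but here the name rests on the markers, and lipid was not measured in these cells. Foam cells made up 13.3% of ND (10.1 to 17.0) and 36.1% of HFD macrophages (32.1 to 40.4). Foam cells were at least 2-fold above resident cells in both libraries for 1 of 10 members, Adam8, against 3.96% of all genes. They were below resident cells for 6 of 10, Adam15, Adam19, Adam30, Adam33, Adamts1 and Adamtsl5, against 6.60% of all genes, but of these only Adam15 and Adam19 had a counting interval below 0 in both libraries. Adam8 was at 153 and 191 CPM in foam cells and 18.7 and 41.9 CPM in resident cells, and Adam15 at 78.1 and 74.7 CPM in foam cells and 309 and 294 CPM in resident cells. Read within sub-gates, the diet ratio of Adam15 was -0.07 in foam cells (-0.67 to 0.59) and -0.07 in resident cells (-0.27 to 0.12). The part of the foam cell share in the difference over the whole gate was not tested. For Adam8 the log2 diet ratio was 0.32 (-0.10 to 0.76) in foam cells and 1.17 (0.47 to 1.90) in resident cells, the latter from 25 and 62 UMIs. Adam10 and Adam17 differed little between both kinds of macrophages, with log2 ratios of foam over resident cells between -0.09 and -0.01.

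**Figure D5:**
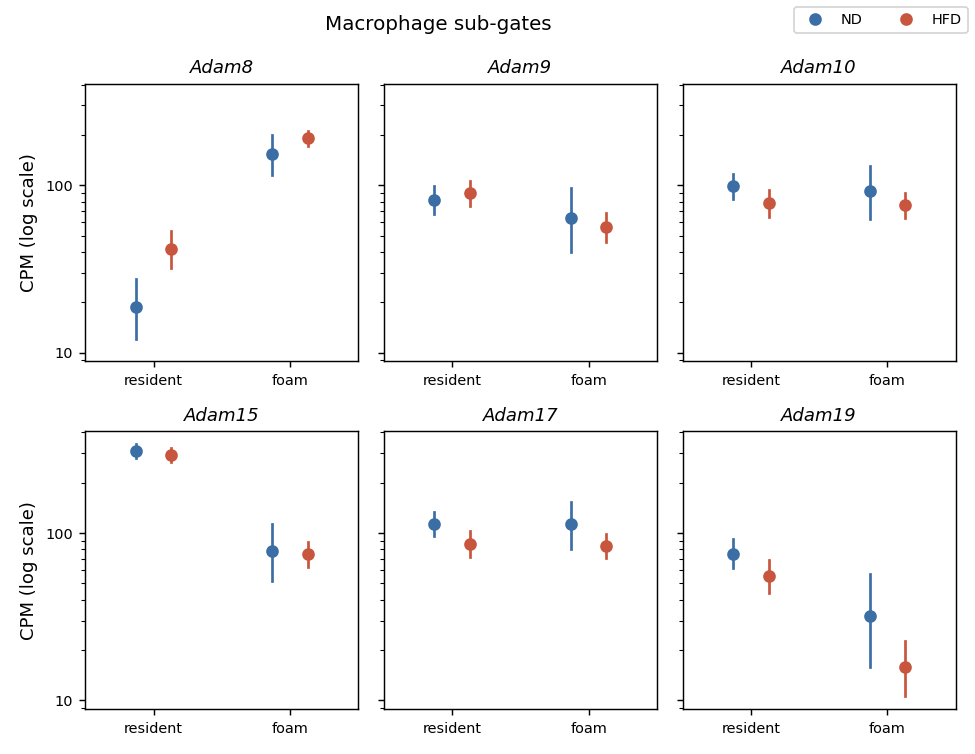
CPM of 6 ADAM genes (log axis) in resident and foam macrophages of the ND library (blue) and the HFD library (red), with exact 95% Poisson intervals. Adam8 was higher in foam cells (153 and 191 CPM) than in resident cells (18.7 and 41.9 CPM), Adam15 was lower in foam cells (78.1 and 74.7 CPM against 309 and 294 CPM), and within each kind the diets lay close together for Adam15.

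Genes that work with these proteases were read from lists of 68 genes in all, of inhibitors, activators, partners, substrates and matrix metalloproteinases (MMPs). In endothelial cells 0 of 18 measured shed substrates passed 2-fold between the diets, and 0 of 3 partners of Adam17 and 0 of 4 tetraspanin partners of Adam10 did. Of the activators, 4 propeptide convertases, 1 was lower in HFD, Pcsk5, and of 6 measured MMPs 1 was lower, Mmp11. Cdh5, a cadherin cut by Adam10, was at 1588 and 1506 CPM, and Notch1 at 328 and 283 CPM. Among 6 inhibitors, 1 was higher in HFD, Timp1, from 34 and 98 UMIs, and 2 were lower, Reck and A2m. Timp3, the tissue inhibitor known to block Adam17, Adamts4 and Adamts5, was at 2091 and 1316 CPM in endothelial cells, a log2 ratio of -0.67 (-0.70 to -0.64). In fibroblasts Timp3 was at 2072 and 714.8 CPM, a log2 ratio of -1.54 (-1.62 to -1.45), and Timp1 at 69.1 and 202 CPM. Lower in HFD fibroblasts too were Reck, 1 of 10 measured matrix substrates, Col1a1, and 1 of 7 measured MMPs, Mmp16. Of 11 measured matrix substrates in endothelial cells, 1 was higher, Vcan (versican), from 43 and 133 UMIs, and 3 were lower, Comp, Thbs1 and Ltbp1. In macrophages 3 of 6 measured MMPs were higher, Mmp8, Mmp14 and Mmp19, and 2 were lower, Mmp9 and Mmp13. Mmp14, a membrane-anchored MMP, was at 21.4 and 57.4 CPM, and Mmp9, a gelatinase, at 158 and 31.5 CPM. There 3 of 14 measured shed substrates were lower in HFD, Areg, Il6ra and Icam1, with Icam1, an adhesion molecule for leukocytes, at 292 and 120 CPM. Lower too were 4 of 6 measured matrix substrates, Col1a1, Col1a2, Col3a1 and Bgn, beside the drop in the fibroblast marker sum given above. These counts stand beside the shares of all genes past 2-fold in each gate given above.

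The genes with a pattern most like that of Adam15 and Adamts9 were sought by Pearson's r of log2(CPM + 1) over 8 values, the endothelial, fibroblast, macrophage and dendritic gates in both libraries, among 10791 genes. For Adamts9 they were Mcf2l, Cdh13, Shank3, Plxna2 and Tcf15, with r between 0.988 and 0.992. For Adam15 they were Dpagt1, Cpsf2, Mfhas1, Vps54 and Brox, with r between 0.962 and 0.976. These values describe 8 sums from 2 libraries that share cells' depth, and they carry no p-value.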

How the data were processed

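The members and gene lists were chosen with earlier results of these data known. The authors aligned reads to the mouse genome (build mm10, per the submitters' processing notes) and deposited gene by barcode matrices of UMI counts, with no normalization, which per the file headers were written by Cell Ranger 3.0.1. The notes also name bcl2fastq, UMI-tools, Seurat 3.2.0 and R 4.0.0, and for the gene annotation no source read here gives a name. A barcode was kept if it had 200 or more genes and 200 or more UMIs, of which no more than 30% were mitochondrial. This left the cell numbers that the study reports. Median depth was 3732.5 UMIs in ND cells and 5336 in HFD cells.

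Cells were gated on 6 markers per type (at least 3 counted, or 2 for dendritic cells, with a lead of 2), and cells with 3 or more markers of several types but no such lead, 294 ND and 249 HFD, were left out as mixed. No doublet caller was run. Within the endothelial, fibroblast and macrophage gates, cells were divided by UMIs of sub-gate markers, with at least 2 UMIs. UMIs were summed per gate and library. Levels carry exact 95% Poisson intervals, diet ratios exact conditional binomial intervals and shares of cells exact binomial intervals, all for counting error only. With 1 library per diet no test was made and no p-value is given. A gene needed 50 UMIs over both libraries to be called, at 4-fold for gates in both libraries and at 2-fold for diets and sub-gates. Members with at least 50 UMIs were named, and those with 200 or more in a large gate were given values there. Other counts of 5 or fewer were named after their values were seen. Shares of cells were also read after thinning to 1000 UMIs, which left out 63 ND cells and 0 HFD cells.

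There were 8 alternatives to the main settings (mitochondrial limit, markers, scaling, weight of cells and high-UMI cells), and 1 more, no mitochondrial limit, was chosen after seeing the data. The interval code was tested on simulated data. Gene positions were from GENCODE M21 and promoters from RefSeq (GRCm38.p6), where 31 of the 57 members were listed. Python 3.11.15, numpy 2.4.6, scipy 1.17.1, pandas 2.3.3 and matplotlib 3.10.9 were used.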

Additional observations from a re-analysis of the deposited data

Results flagged for a closer look

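Among the endothelial, fibroblast and macrophage gates, 3 members had diet differences in opposite directions with counting intervals that excluded 0. Each side rests on 1 library per diet. Smaller gates were left out of this count, among them neutrophils, where Adam8 was at -0.96 (-1.76 to -0.24) beside 1.32 in macrophages. None of these differences between cell types was tested. Adam15 had a log2 ratio of HFD over ND of 1.48 in endothelial cells and -0.48 in macrophages. Within resident and foam macrophages read apart, as given above, the counting intervals of its diet ratio spanned 0. Foam cells, which carried less Adam15, made up 13.3% of ND and 36.1% of HFD macrophages, and the part of this shift was not tested. Adam19 was at 0.48 in fibroblasts, at -1.65 in endothelial cells and at -0.83 in macrophages, but at -0.22 in fibroblasts when cells with any marker of another gate were left out, which removes the opposition. Adamts2 was at 0.66 in endothelial cells, from 60 and 61 UMIs, and at -0.36 in fibroblasts, but at -0.98 in endothelial cells under that same setting, which again removes the opposition. Fibroblast markers summed to 111 and 106 CPM in the endothelial gate, where their part in the Adamts2 value was not tested.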

How the results depend on the processing

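No paired analysis was possible because each diet had 1 library, and for the same reason no replicate could be left out. Of 468 values of single members under other settings, 398 moved by less than their counting interval, and 69 moved further. Of the values past 2-fold, 1 changed sign: Adamtsl4 in endothelial cells was at 1.015 when cells with any marker of another gate were left out. Values under 2-fold also changed sign there, among them Adamts2 (0.66 to -0.98) and Adam8 (-0.48 to 1.19) in endothelial cells, Adam19 (0.48 to -0.22) and Adam23 (0.13 to -1.43) in fibroblasts and Adamts1 (0.19 to -2.66) in macrophages. That setting left 369 ND and 148 HFD endothelial, 163 and 82 fibroblast, and 47 and 126 macrophage cells. Of 138 counts, 114 stayed within 1.5 times the main count.
The others were these, and where the cause is not the fewer cells just given it was not tested. Without cells carrying another gate's marker, 7 members were higher in fibroblasts and 0 in macrophages, 0 were lower in HFD in endothelial cells and in macrophages, 1 was higher and 1 lower in fibroblasts, 0 were higher and 2 lower in luminal than capillary cells, 1 was lower in Pi16-type than Inmt-type cells and 1 in foam than resident cells. With at most 20% mitochondrial UMIs, 2 were lower in HFD in endothelial cells, 1 in fibroblasts, 1 in Pi16-type and 1 in foam cells. With gates on thinned cells, 1 was lower in fibroblasts, 2 were higher in macrophages and 2 lower in foam cells. With median of ratios, 2 were higher in macrophages than in other cells and 1 was lower in HFD fibroblasts. Without mitochondrial, haemoglobin and ribosomal genes, 1 was higher and 1 lower in fibroblasts. Without the highest 5% of cells by UMIs, 1 was lower in fibroblasts and 2 in foam cells. With no limit on mitochondrial share, 1 was lower in fibroblasts.
Over all settings the log2 diet ratio of Adam8 in macrophages lay between 1.02 and 3.84, that of Adamtsl2 in fibroblasts between -4.28 and -2.16, that of Adamts5 between 1.37 and 1.67 in endothelial cells and between 0.72 and 1.18 in fibroblasts, and that of Adamts4 in endothelial cells between 0.58 and 1.74. In macrophages Adam30 lay between -2.28 and -1.13, Adam33 between -1.77 and -1.12, Adamts10 between -1.745 and -1.14 and Adamtsl5 between -2.30 and -1.20. In all, 28 of 52 values kept 1 sign.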
